A study of Mus musculus with 8 samples.

Results

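The transcripts of RANK, the TRAF adaptors, the cellular inhibitors of apoptosis (cIAPs) and TANK were followed while mouse macrophages turned into osteoclasts. The members are every probe whose platform symbol is Tnfrsf11a, Traf1, Traf2, Traf3, Traf5, Traf6, Birc2, Birc3 or Tank. There are 14 such probes among the 25697 on the array, and they stand for 8 of the 9 genes, because no probe carried the symbol Traf3, which is not analysed here. All 14 were among the 12683 tested probes, whose detection p fell below 0.05 on 2 or more of the 8 arrays. Of these, 10 were detected on all 8 arrays. The Traf5 probe, the Birc3 probe and 1 Birc2 probe passed through days 2 and 3 alone.

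Bone marrow cells of C57BL/6 mice aged 6 to 8 weeks were cultured with M-CSF, the growth factor of macrophages, at 5 ng/ml for 16 h and at 30 ng/ml for 3 days. The adherent macrophages were day 0, and days 1, 2 and 3 had M-CSF at 30 ng/ml with the osteoclast differentiation factor RANKL at 50 ng/ml, with 2 arrays for each of the 4 days. Whether the 2 arrays of a day stem from separate cultures or mice is not stated in the labels, and p-values therefore reflect the spread between these arrays alone, which may be technical. Days 1 to 3 have no arrays of cells without RANKL, so RANKL and time in culture cannot be told apart. The array was the MouseRef-8 v2.0 Expression BeadChip, and each array detected between 11281 and 11361 probes, its mean signal lying between 720 and 841.

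RANK is the receptor on macrophages and osteoclasts that binds RANKL. It has no enzyme activity of its own and recruits TRAF proteins to its cytoplasmic tail. TRAF6 passes the signal to the kinase TAK1, the IKK complex and the MAP kinases. TRAF2, TRAF3 and the cIAPs form a complex that degrades the kinase NIK in resting cells, and release of NIK opens the noncanonical NF-kB route.

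Most macrophage and osteoclast markers followed the labels. Itgam was an exception, not called against day 0 at any day (day 3: -0.38 ± 0.16, limma adjusted p = 0.0812), and Atp6v0d2 was too dim to test. Adgre1, Itgam and Fcgr1, the 3 of 5 macrophage markers with a named probe, were detected on both arrays of day 0, and their summed linear level ran from 10894 to 12095 there and from 1374 to 1377 at day 3. The summed level of the 7 osteoclast markers ran from 493 to 532 at day 0 and from 70036 to 70259 at day 3. Most of the day 3 sum came from Ctsk and Mmp9, at mean log2 values of 15.03 and 14.93. Calcr, Dcstamp and Ocstamp were not detected on either array of day 0. Markers of other cells were also measured. The B lineage sum lay between 318 and 320 at day 0 and between 128 and 129 at day 3, with Cd79b alone of 4 markers detected on both day 0 arrays and Cd79a, Ms4a1 and Pax5 too dim to test. The T and NK sum lay between 160 and 162 at day 0 and between 122 and 124 at day 3, and the neutrophil and granulocyte precursor sum between 1116 and 1181 and between 333 and 341. Each sum adds all probes of its list, also undetected ones, whose values carry the offset of 16, so it has a floor. Of the T and NK markers only Klrd1 was detected on both day 0 arrays. No B lineage or T and NK marker was detected on both day 3 arrays. The dendritic sum lay between 204 and 214 at day 0 and between 201 and 205 at day 3, and the osteoblast and stromal sum between 195 and 227, reaching 343 to 362 at day 1. S100a8, a granulocyte gene, gave 9.45 and 9.52 at day 0, and 4 of the 5 granulocyte markers with a probe were detected on both arrays there. Dcn, a stromal matrix gene, was not detected at day 0 (4.84 and 4.83) and gave 7.43 and 7.47 at day 1 (limma adjusted p = 7.15e-05). It passed the filter through days 1 to 3 alone, so it was bound to differ from day 0. The other tested markers of that list were not called at day 1, with Col1a1 at -0.01 ± 0.13 (limma adjusted p = 0.944) and Alpl at -0.25 ± 0.19 (limma adjusted p = 0.351). Col1a2 and Sp7 were too dim to test, and Runx2 had no named probe. The part of these cells in the results below was not tested. In a bulk culture, fewer cells of a type and less RNA per cell cannot be told apart.

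Most member genes were higher by day 2 than at day 0, at different times and by different amounts. Over the whole time course, 12 of 14 probes changed in limma's F test at a Benjamini-Hochberg adjusted p under 0.05, against 69.9% of all tested probes. Compared with day 0, 7 probes were higher and 1 lower at day 1, against 23.6% and 19.4% of all tested probes. At day 2, 11 were higher and none lower, also at an unadjusted p under 0.05, against 26.7% and 24.1%. At day 3, 10 were higher and none lower in limma (1 lower at an unadjusted p under 0.05), against 28.1% and 28.1%. From day 1 to day 2, 8 were higher and 1 lower, against 21.1% and 23.5%. Between days 1 and 3, 9 were higher and 1 lower, against 26.9% and 30.0%, and Traf1 was the lower one both times. From day 2 to day 3 none was higher (2 at an unadjusted p under 0.05) and 1 was lower (3 at an unadjusted p under 0.05), against 8.70% and 9.82%. The median log2 change of the 14 probes was 0.45, 1.52 and 1.28 at days 1, 2 and 3, beside 0.05, 0.03 and -0.01 over all tested probes. Among the 10 probes detected on all arrays, 6, 9 and 8 were higher at the 3 days. In a fit of the 9368 probes detected on all arrays, 7, 9 and 9 of these 10 were called in either direction. Over all 9368 the counts were 5009, 5571 and 6031. Several probes belong to the same gene, so the probes are not independent. By the tested probe with the highest mean of each gene, 3 of 8 genes were higher and 1 lower at day 1. The shares over all tested genes were 23.0% and 21.0%. At day 2, 6 genes were higher and none lower, against 27.0% and 25.9%. At day 3 it was again 6 and none, against 28.7% and 29.3%. The 3 comparisons share the day 0 arrays. The day 1 count of member probes fell without day 0 replicate 2 and without day 1 replicate 1. The day 1 count over all tested probes fell in these 2 fits as well, and each leaves 1 array for a day.

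**Figure D1:**
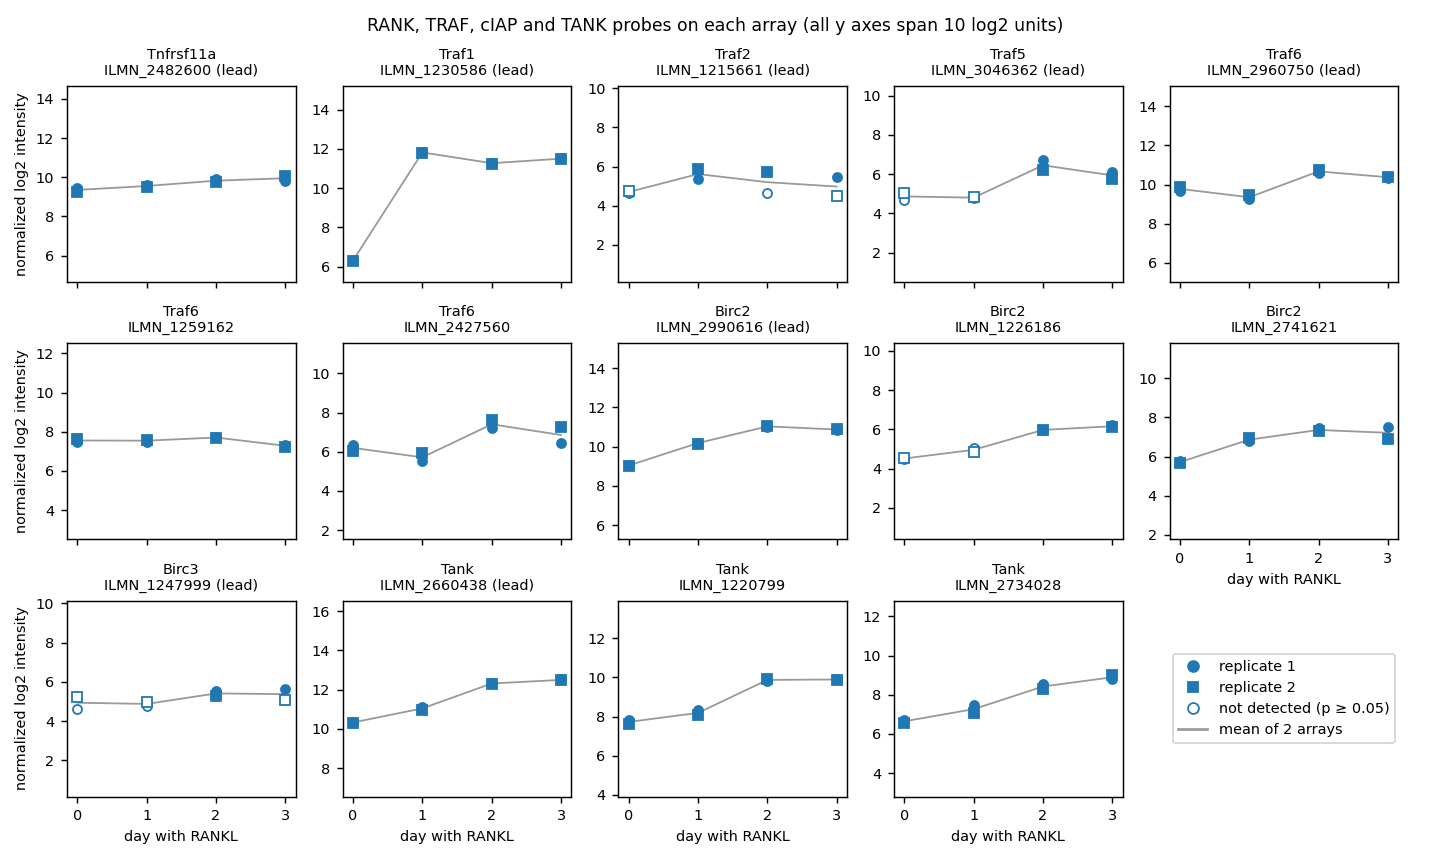
Normalized log2 intensity (y) of each of the 14 probes on each array against the day with RANKL (x); circles are replicate 1, squares replicate 2, open symbols arrays where the probe was not detected, and the line joins the means of 2 arrays. Traf1 jumps at day 1, Birc2 and Tank climb to day 2, and Traf2 and Birc3 stay near the detection limit.

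The receptor itself changed little. Tnfrsf11a, the RANK gene, has 1 probe, ILMN_2482600. Its normalized log2 intensity was 9.47 and 9.24 at day 0, 9.58 and 9.53 at day 1, 9.90 and 9.75 at day 2, and 9.81 and 10.09 at day 3. The day 2 and day 3 arrays lay above both day 0 arrays, but the deposited signals before normalization overlapped, with 905 and 735 at day 0 against 905 and 1117 at day 3. Each log2 change carries its standard error (±, n = 2 arrays for each day) and limma's p adjusted over all 12683 probes. From day 0 the change was 0.20 ± 0.13 at day 1 (limma adjusted p = 0.274), 0.47 ± 0.13 at day 2 (limma adjusted p = 0.0233) and 0.60 ± 0.13 at day 3 (1.51-fold, limma adjusted p = 0.00762). Ordered by mean, the days ran 0, 1, 2, 3, and neighbouring days did not differ at the threshold (limma adjusted p = 0.274, 0.146 and 0.559). Day 3 lay above day 1 by 0.40 ± 0.13 (limma adjusted p = 0.0395), a call lost under 4 other settings, among them array medians set equal (0.08, limma adjusted p = 0.702). It was also lost without day 1 replicate 1, day 1 replicate 2, day 2 replicate 1, day 2 replicate 2 or day 3 replicate 2. With array medians set equal in place of quantile normalization both calls against day 0 were lost, at 0.41 (limma adjusted p = 0.0672) and 0.42 (limma adjusted p = 0.0575). The day 2 call was also lost without day 0 replicate 2 (0.36) or day 2 replicate 1 (0.40).

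Traf1 made the largest change of the 14 probes. TRAF1 lacks the RING domain of the other TRAFs and forms complexes with TRAF2 and the cIAPs, and its gene is a known NF-kB target in immune cells. The deposited signal of its single probe, ILMN_1230586, was 226 and 216 at day 0, 4223 and 3838 at day 1, 2578 and 2631 at day 2, and 2761 and 2745 at day 3. After normalization the log2 values were 6.35 and 6.26, then 11.83 and 11.81, 11.31 and 11.24, and 11.53 and 11.48. No array with RANKL overlapped a day 0 array, and each of the 8 arrays detected the probe. The rise from day 0 was 5.51 ± 0.09 at day 1 (45.7-fold), 4.97 ± 0.09 at day 2 (31.3-fold) and 5.20 ± 0.09 at day 3 (36.7-fold, limma adjusted p = 1.52e-07). Day 1 was the peak: Traf1 fell by 0.55 from day 1 to day 2 (± 0.09, limma adjusted p = 0.00256), and days 2 and 3 did not differ at the threshold (0.23 ± 0.09, limma adjusted p = 0.117). The lower level at day 3 than at day 1 (-0.32 ± 0.09, limma adjusted p = 0.0194) was not called without day 1 replicate 1, day 1 replicate 2 or day 3 replicate 2. Without background correction the day 1 rise was 4.08, so its size depends on that step.

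TRAF6 is the adaptor that RANK needs to form osteoclasts, and 1 probe of its gene showed a dip and then a rise. Traf6 has 3 probes, and this one, ILMN_2960750, is its lead probe, the tested probe with the highest mean. It gave 9.66 and 9.89 at day 0, 9.25 and 9.45 at day 1, 10.61 and 10.73 at day 2, and 10.36 and 10.39 at day 3. Both day 1 arrays lay below day 0, and all arrays of days 2 and 3 lay above it. Relative to day 0 the change was -0.43 ± 0.12 at day 1 (limma adjusted p = 0.0262), 0.89 ± 0.12 at day 2 (1.86-fold, limma adjusted p = 0.000779) and 0.59 ± 0.12 at day 3 (1.51-fold, limma adjusted p = 0.00471). The step from day 1 to day 2 was the largest, at 1.32 ± 0.12 (2.50-fold, limma adjusted p = 0.000219), and days 2 and 3 did not differ at the threshold (limma adjusted p = 0.131). The dip was not called without day 0 replicate 2 (-0.31), without day 1 replicate 1 (-0.33) or with array medians set equal (-0.27). It was also not called with only the 2 days compared.

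The 3 Traf6 probes did not give the same profile. ILMN_2427560, nearer to background, followed the lead probe with 6.33 and 6.06, 5.51 and 5.92, 7.21 and 7.60, and 6.46 and 7.25 at the 4 days. Its day 1 change of -0.48 ± 0.28 was not called (limma adjusted p = 0.219). It rose by 1.21 ± 0.28 at day 2 (limma adjusted p = 0.0108) and gave 0.66 ± 0.28 at day 3 (limma adjusted p = 0.0887). Its day 2 call was lost without day 0 replicate 2 or day 2 replicate 2. ILMN_1259162 read 7.48 and 7.62, 7.50 and 7.59, 7.75 and 7.66, and 7.32 and 7.24, with day 3 lowest. It showed no dip at day 1 (-0.01 ± 0.10, limma adjusted p = 0.957). It gave 0.15 ± 0.10 at day 2 (limma adjusted p = 0.243) and -0.27 ± 0.10 at day 3 (limma adjusted p = 0.0505), and it was the only member probe called from day 2 to day 3 (-0.42 ± 0.10, limma adjusted p = 0.0300). That call was lost on leaving out any 1 array of days 1, 2 or 3. The platform gives all 3 probes the same transcript accession, and the difference between their changes was not tested.

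Traf5 was not well above background at days 0 and 1 and was detected on both arrays of days 2 and 3. TRAF5 is close in structure to TRAF3 and binds several receptors of the TNF family. Its 1 probe, ILMN_3046362, gave 4.69 and 5.04 at day 0, 4.76 and 4.84 at day 1, 6.71 and 6.19 at day 2, and 6.10 and 5.78 at day 3. Against the lowest detected level on the day 0 arrays it was at least 2.29-fold higher at day 2 (limma adjusted p = 0.000677) and at least 1.60-fold higher at day 3 (limma adjusted p = 0.00383). A probe that passes the filter through its high days alone is bound to differ, so these values describe the timing and are no support for the count above. Days 2 and 3 did not differ at the threshold (-0.52 ± 0.21, limma adjusted p = 0.132).

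Traf2 passed no test in the fit of all 4 days. TRAF2 bridges receptors to the cIAPs. Its probe ILMN_1215661 was detected on 4 of 8 arrays, on neither at day 0, both at day 1, and 1 each at days 2 and 3. The log2 values were 4.63 and 4.77, 5.36 and 5.88, 4.66 and 5.75, and 5.47 and 4.50, so replicates of the same day differed by up to about 1 log2 unit. The change at day 1 was 0.92 ± 0.43 (limma adjusted p = 0.127), and no comparison passed the threshold. Both day 1 arrays lay above both day 0 arrays, and with only those 2 days compared the day 1 change passed (limma adjusted p = 0.0192). Under the other alternatives run, its adjusted p stayed above the threshold, up to 0.400 without day 1 replicate 2.

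**Figure D2:**
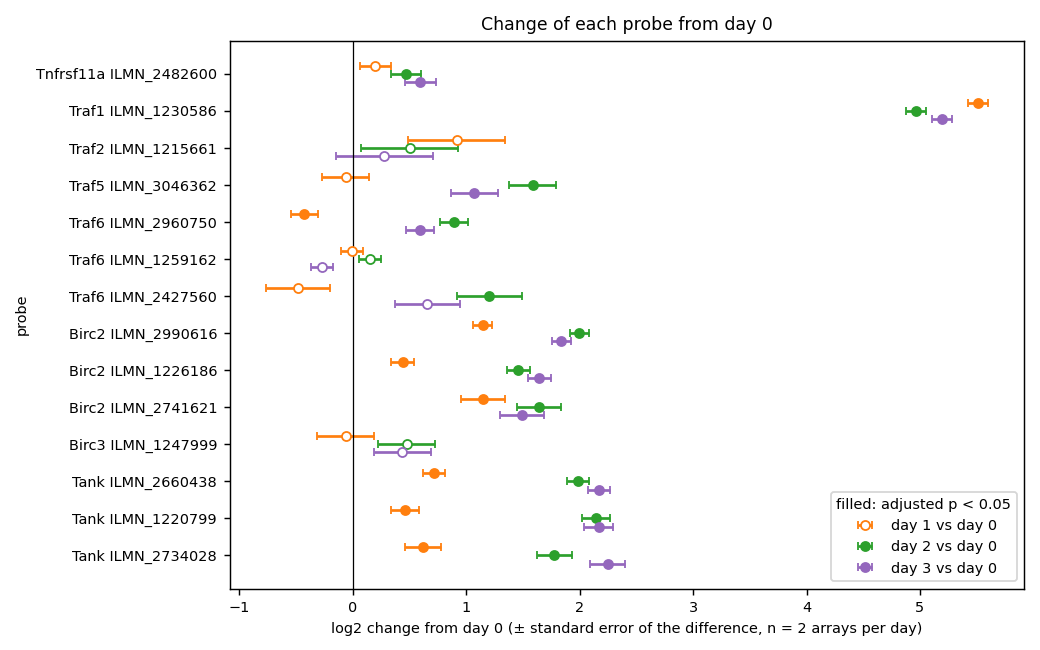
Log2 change from day 0 (x) of each probe (y) at days 1, 2 and 3; bars are the standard error of the difference with 2 arrays per day, and filled points have a limma adjusted p under 0.05. Traf1 stands at 4.97 to 5.51, the Birc2 and Tank probes between 0.44 and 2.25, and the Traf6 lead probe crosses from -0.43 at day 1 to 0.89 at day 2.

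Birc2, which codes for the ubiquitin ligase cIAP1, rose on the 2 of its 3 probes that were detected on all arrays. Its lead probe ILMN_2990616 gave 9.06 and 9.01 at day 0, 10.21 and 10.15 at day 1, 11.02 and 11.05 at day 2, and 10.85 and 10.90 at day 3. Replicates lay within 0.1 of each other and no 2 days overlapped. The rise was 1.15 ± 0.09 at day 1 (2.21-fold), 2.00 ± 0.09 at day 2 (3.99-fold, limma adjusted p = 3.47e-06) and 1.84 ± 0.09 at day 3 (3.58-fold, limma adjusted p = 3.86e-06). The order of the levels was day 0, 1, 3 and 2, of which days 3 and 2 did not differ at the threshold (limma adjusted p = 0.240). ILMN_2741621 rose as well, by 1.15, 1.64 and 1.49 (± 0.19) at days 1, 2 and 3. ILMN_1226186 was not detected at days 0 and 1, and against day 0 it stood at least 1.65-fold higher at day 2 and at least 1.87-fold higher at day 3. As with Traf5, the filter admitted it through those days, so its rise is no support. It counts among the 7 probes called higher at day 1 (0.44 ± 0.10), although neither of those days was well above background, and that call was lost without background correction, with an offset of 50 and without day 1 replicate 1.

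Birc3, the neighbouring gene, stayed at the detection limit. Birc3 codes for cIAP2, a close relative of cIAP1 and a known NF-kB target, and the RefSeq table lists no annotated gene between Birc2 and Birc3. Its probe ILMN_1247999 gave 4.63 and 5.23 at day 0, 4.78 and 4.96 at day 1, 5.54 and 5.28 at day 2, and 5.65 and 5.10 at day 3. It was detected on 3 of 8 arrays, both of day 2 and 1 of day 3. The change from day 0 was -0.06 ± 0.25, 0.48 ± 0.25 and 0.44 ± 0.25 at days 1, 2 and 3 (limma adjusted p = 0.867, 0.157 and 0.179). In the authors' processed values the day 2 change passed, as given under the processing alternatives. A difference between the changes of Birc2 and Birc3 was not tested.

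Tank rose on all of its 3 probes, most of it between days 1 and 2. TANK binds TRAFs and the kinases TBK1 and IKK-epsilon, and in mouse osteoclast cultures it is known as a brake on TRAF6 ubiquitination. The lead probe ILMN_2660438 gave 10.37 and 10.29 at day 0, 11.13 and 10.96 at day 1, 12.32 and 12.31 at day 2, and 12.53 and 12.47 at day 3, with no overlap between days. The rise was 0.72 ± 0.10 at day 1 (1.65-fold, limma adjusted p = 0.00116), 1.99 ± 0.10 at day 2 (3.97-fold) and 2.17 ± 0.10 at day 3 (4.51-fold, limma adjusted p = 3.33e-06). The step from day 1 to day 2 was 1.27 ± 0.10 (limma adjusted p = 0.000109), and days 2 and 3 did not differ at the threshold (limma adjusted p = 0.229).

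The other Tank probes moved the same way. ILMN_1220799 went from 7.85 and 7.60 at day 0 to 9.90 and 9.89 at day 3, a rise of 2.17 ± 0.13. ILMN_2734028 went from 6.71 and 6.59 to 8.80 and 8.99, a rise of 2.25 ± 0.15. At day 3 the 3 estimates lay within 0.1 of each other. At day 1 these 2 probes were higher by 0.46 ± 0.13 and 0.62 ± 0.15, and both calls were lost without day 0 replicate 2 and without day 1 replicate 1.

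The promoter windows of the members, from RefSeq on build GRCm38.p6, run from 250 bases before to 50 after an annotated start. All 9 genes were matched, with 13 windows. They were searched on both strands for a wide kB-like motif (GGG, any 5 bases, CC), for a narrow kB-like motif (GGG, any 2 bases, TTTCC), whose matches are all matches of the wide one too, and for the AP-1 motif TGANTCA. Of all 32851 windows of this length, 50.8% hold the wide motif, 1.63% the narrow one and 7.81% the AP-1 motif. The wide motif was present in 10 of the 13 windows, the narrow one in 4 (Tank, Traf2 and Traf3) and the AP-1 motif in 2, both of Tank and overlapping each other. These 2 Tank windows also share 1 narrow match, and the other 2 Tank windows overlap and share 1 wide match. By gene, the wide motif was present in 7 of 9, the narrow one in 3 and the AP-1 motif in 1. The shares over all windows are therefore not a like measure. Shown are Traf1, which rose most, Birc2 and Tank, which rose on each probe detected on all arrays, and Traf2, which gave no call in the fit of all 4 days; capitals mark wide kB-like and AP-1 matches.
Traf1, chr2:34961723-34962022, minus strand: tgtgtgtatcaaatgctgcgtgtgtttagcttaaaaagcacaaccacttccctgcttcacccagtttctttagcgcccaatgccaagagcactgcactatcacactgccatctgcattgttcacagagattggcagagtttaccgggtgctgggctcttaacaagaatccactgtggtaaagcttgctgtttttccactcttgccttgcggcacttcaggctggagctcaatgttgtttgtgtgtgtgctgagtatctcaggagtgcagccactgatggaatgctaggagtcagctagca
Birc2, chr9:7837008-7837307, minus strand: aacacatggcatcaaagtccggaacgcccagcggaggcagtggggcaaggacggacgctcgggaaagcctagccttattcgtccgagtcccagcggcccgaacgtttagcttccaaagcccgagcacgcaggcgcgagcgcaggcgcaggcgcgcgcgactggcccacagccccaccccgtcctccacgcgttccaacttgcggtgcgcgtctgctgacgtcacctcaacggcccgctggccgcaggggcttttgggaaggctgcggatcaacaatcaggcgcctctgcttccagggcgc
Tank, chr2:61592847-61593146, plus strand: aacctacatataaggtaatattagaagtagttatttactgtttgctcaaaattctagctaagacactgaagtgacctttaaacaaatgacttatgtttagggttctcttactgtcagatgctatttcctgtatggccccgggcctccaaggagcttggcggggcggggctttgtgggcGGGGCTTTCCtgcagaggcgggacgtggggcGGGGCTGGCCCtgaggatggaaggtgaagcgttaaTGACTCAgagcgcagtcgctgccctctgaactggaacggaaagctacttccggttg
Traf2, chr2:25546891-25547190, minus strand: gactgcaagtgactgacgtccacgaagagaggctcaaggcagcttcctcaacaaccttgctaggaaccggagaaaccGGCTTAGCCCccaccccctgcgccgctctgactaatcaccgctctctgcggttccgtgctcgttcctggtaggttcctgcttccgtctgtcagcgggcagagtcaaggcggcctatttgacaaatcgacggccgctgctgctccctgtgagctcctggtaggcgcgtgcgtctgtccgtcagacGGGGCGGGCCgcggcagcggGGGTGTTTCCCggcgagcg

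The Traf1 and Birc2 windows held none of the 3 motifs, which says only that these letters are not in these windows. The Tank window held the narrow kB-like match GGGGCTTTCC at position -72, counted from 0 at the annotated start, 2 further wide matches that overlap each other, and the AP-1 match TGACTCA at position -6. The Traf2 window held 4 wide matches, of which GGGTGTTTCC at position 31 also matches the narrow motif and overlaps the next. A match is a description of the letters, and a window with matches stood beside a gene that rose (Tank) as well as one that gave no call in the fit of all 4 days (Traf2).

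For each of the 6 genes with a lead probe called in the F test, the other genes were ranked by the distance between their 8-array log2 profiles, each centred on its mean, over 6180 other genes called in that test. The arrays share 4 days, so a high correlation is easily reached, and the values are a description. Nearest to Tank were the phosphatase gene Ptpn12 (distance 0.16, r = 0.998 over 8 arrays), the BH3-only gene Bmf (0.16, r = 0.998) and Pter (0.20, r = 0.998). Nearest to Birc2 were Nsmaf (0.22, r = 0.995), Ifi27 (0.26, r = 0.994) and Fnbp1l (0.30, r = 0.998). Nearest to Tnfrsf11a were Wipf2, Gm9731 and Pkn2, each at 0.17 to 0.18 (r = 0.969 to 0.971). Distances grow with the size of a change. Nearest to Traf1, the lymphatic growth factor gene Vegfc lay at 0.63 (r = 0.996), the AP-1 family gene Jdp2 at 1.09 (r = 0.986) and Tsc22d1 at 1.42 (r = 0.990). Ro60 was the nearest gene of Traf6 (0.36, r = 0.980) and the next nearest of Traf5 (0.63, r = 0.966), after Lrrc39 (0.62, r = 0.959). Hk1, the hexokinase gene, was next to Traf6 (0.40, r = 0.962).

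**Figure D3:**
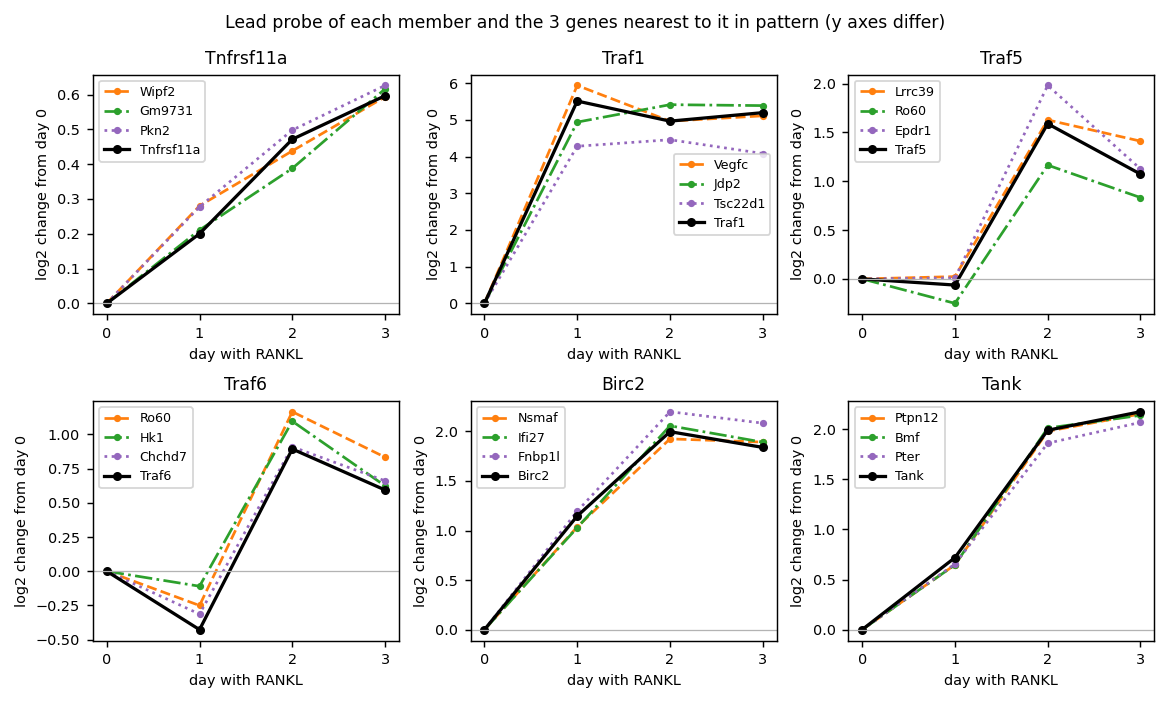
Log2 change from day 0 (y) against the day with RANKL (x) for the lead probe of 6 members, in black, and the 3 genes nearest to each in pattern; points are means of 2 arrays and the y axes differ. Traf1 and Vegfc rise by 5.51 and 5.94 at day 1, while Traf6 and Ro60 dip at day 1 and stand at 0.89 and 1.17 at day 2.

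The other genes of these routes were called higher or lower in shares not far from those over all tested genes. They were gathered in 6 lists of 66 genes, of which 42 had a tested probe, 14 had probes that were too dim and 10 had no probe under their symbol. At day 3, 13 were higher and 14 lower than at day 0, beside 28.7% and 29.3% of the 8663 tested genes, with a median change of -0.10. At day 1, 10 were higher and 12 lower, beside 23.0% and 21.0%, and at day 2, 14 and 12, beside 27.0% and 25.9%. Genes are counted by their lead probe. The counts of single lists below are to be read beside these shares, and they only describe the few genes of each list.

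In the arm of TRAF6 and TAK1, 3 of 6 tested genes were higher at day 2 and 2 at day 3, with none lower at either day. At day 1 none was called in limma, and none was lower at day 2 or 3, also at an unadjusted p under 0.05. Sqstm1, the ubiquitin-binding scaffold p62 that joins TRAF6, rose by 0.50 ± 0.10 at day 3, and Tab1, a TAK1 activator, by 0.52 ± 0.09. Of the 3 other tested Tab1 probes 1 was called the same way. Without day 1 replicate 2 the day 1 count was 1.

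In the arm of TRAF2, TRAF3 and NIK, 2 of 5 tested genes were higher and 1 lower at day 3. Otud7b, a deubiquitinase that protects TRAF3, gave 6.09 and 6.16 at day 0 and 8.58 and 8.73 at day 3, a rise of 2.53 ± 0.09 (limma adjusted p = 1.69e-06). Htra2, a mitochondrial protease that can bind IAPs, rose by 1.33 ± 0.13. Map3k14, the NIK gene, fell by 0.44 (± 0.10, limma adjusted p = 0.00640), with 9.01 and 8.87 at day 0 and 8.46 and 8.54 at day 3. The probes of Xiap, another IAP, were too dim to be tested.

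Among the IKK complex, linear ubiquitin enzymes and deubiquitinases, 5 of 10 tested genes were higher and 3 lower at day 3. Tnfaip3, the deubiquitinase A20, rose by 2.36 ± 0.24 at day 3, and its day 1 value was 0.45 ± 0.24 (limma adjusted p = 0.184). Tnip1, an A20 partner, had already risen by 1.85 ± 0.08 at day 1 and stood at 1.87 ± 0.08 at day 3, and its 3 other tested probes were called the same way. Cyld, a deubiquitinase of TRAF6, rose by 0.81 ± 0.10, and Ikbkg, the regulatory IKK subunit NEMO, by 0.77 ± 0.12. The day 1 count of 3 called genes was 1 without day 0 replicate 2 and 1 without day 1 replicate 1.

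While Tank rose, Ikbke, the IKK-epsilon gene, fell. It gave 9.05 and 9.07 at day 0, 8.13 and 8.43 at day 1, 6.88 and 6.91 at day 2, and 6.86 and 7.11 at day 3, a change of -2.08 ± 0.13 at day 3 (limma adjusted p = 1.73e-05). Of the 5 tested genes in the list of TANK-binding kinases and adaptors 1 was higher and 1 lower at day 3. The other was Azi2, an adaptor of TBK1, at 0.35 ± 0.09, and its call was lost in 4 settings, among them without day 0 replicate 2 and without day 3 replicate 1.

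In the list of other TNF receptors, which also held a decoy receptor and the RANKL ligand, calls went both ways. Of 9 tested genes 4 were higher and 4 lower at day 1, 3 and 4 at day 2, and 2 and 5 at day 3, and 7 of the 16 listed had probes too dim to test, among them Tnfrsf11b, the gene of the decoy receptor osteoprotegerin, and Tnfsf11, the RANKL gene. Tnfrsf9, which codes for the costimulatory receptor 4-1BB, was not detected at day 0 (4.79 and 4.68) and gave 8.02 and 7.96 at day 3, at least 6.65-fold higher (limma adjusted p = 1.25e-06). As with Traf5, the filter admitted Tnfrsf9 through its high days alone, so it was bound to differ from day 0. Cd40, a receptor that signals through TRAF2, TRAF3 and TRAF6, went from 10.19 and 10.34 to 7.41 and 7.18, a change of -2.97 ± 0.12. Of its 4 probes, the other 2 tested ones were called the same way. Tnfrsf13b was not detected at day 3 and was at least 2.04-fold lower than at day 0. It too passed the filter through its high days alone. Tnfrsf1b, a TNF receptor detected on 1 of the 2 day 3 arrays, gave -0.90 ± 0.18 (limma adjusted p = 0.00470). With the tested probes limited to those detected on all 8 arrays, 3 genes of this list were called at day 3.

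Among TRAF and IAP relatives, 1 of 7 tested genes was higher and 4 lower at day 3. Traf3ip2, the adaptor Act1 of interleukin-17 receptors, rose by 2.00 ± 0.12. Birc5, the survivin gene, which is expressed in dividing cells, fell by 2.14 (± 0.09), and its other 2 tested probes were called the same way. Naip5 and Naip2, sensors of the inflammasome that carry BIR domains, gave -1.63 ± 0.11 and -1.12 ± 0.13. The Naip genes are near-identical copies of each other, so signal may be shared between them.

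**Figure D4:**
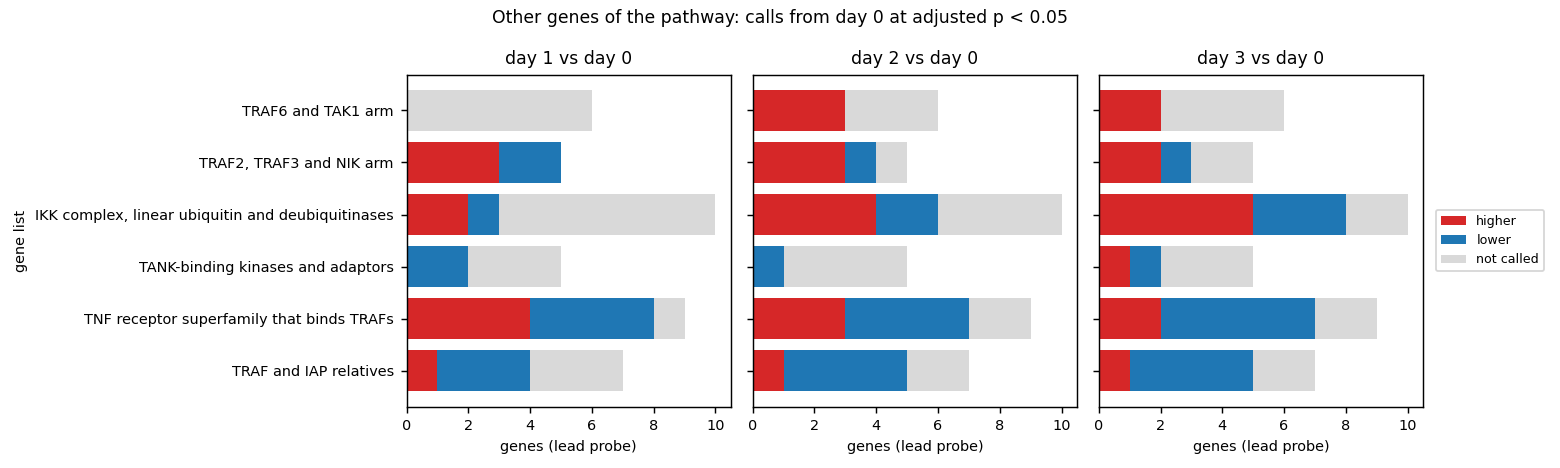
Number of genes (x) in each of 6 gene lists (y) called higher, lower or not called from day 0 at a limma adjusted p under 0.05, by their lead probe, at days 1, 2 and 3. At day 3 the calls were 13 higher and 14 lower among 42 tested genes, beside 28.7% and 29.3% of all 8663 tested genes.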

How the data were processed

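The authors deposited a linear signal intensity for each probe on each array, which by its values was neither background subtracted nor normalized, and, per the file headers, a detection p-value for each signal. The authors' processed intensity values served as an alternative. How these were made, and with which scanner software, is not stated in the labels.

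With neqc of limma 3.58.1 (R 4.3.3), signals were background corrected by normexp with negative control levels estimated through the detection p-values, given an offset of 16, quantile normalized and log2 transformed. Fold changes are on this scale, which understates changes of dim probes. Symbols came from the platform annotation (23978 of 25697 probes; none with several). The filter (detection p below 0.05 on 2 or more of 8 arrays) left 12683 probes. They were fitted by day, with lmFit and eBayes over all arrays, and each comparison was adjusted over all of them (Benjamini-Hochberg, threshold 0.05). The fit was tested on simulated data.

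The precision is limited by 2 arrays per day (median standard error of a difference 0.13). A bound sets a day on which a probe was detected on no array at the lowest detected level of each array, or the probe's own where higher. Beyond the members, each list's called genes with the largest change at day 3 were named, up to 4, and the 3 genes nearest in pattern to a lead probe. Members, lists and alternatives were chosen with earlier results of these data known. Alternatives were other background correction, normalization, offset, filters, source of values, 1 probe per gene, the replicate block, fits of 2 days only and leaving out each array. Same-numbered replicates did not deviate together (correlations of -0.09 to 0.08 over 6 pairs of days), and the main fit had no replicate block. With 2 arrays per day this cannot show whether same-numbered arrays share a culture or mouse. A slide as a block was not run, because the headers name none.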

Additional observations from a re-analysis of the deposited data

How the results depend on the processing

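Of 986 repeats of the 61 called results of single member probes, 937 kept the call, 49 lost it, and none reversed direction. Many of them could not reverse. The 12 called F tests have no direction, and leaving out an array of a day outside a comparison leaves its estimate unchanged. With 1 probe per gene, 8 member probes remained among 8663. Member probes called were 4, 6 and 6 for days 1, 2 and 3 against day 0, beside 3982, 4714 and 5118 of all. They were 5 for day 2 against 1, 0 for day 3 against 2 and 6 for day 3 against 1, beside 4192, 1895 and 5125. The F test called 6, beside 6275 of all. At day 1 and in the F test the member share was thus near that of all genes. The single call of day 3 against day 2 became 2 with array medians set equal, 4 without background correction, 2 with an offset of 50, 2 in the authors' processed values, 0 with no filter, 2 among probes detected on all 8 arrays and 0 with only the 2 days compared. Over all tested probes that comparison gave 2349 calls in the main fit. In the same order of settings it gave 2364, 3465, 2951, 2802, 1638, 2657 and 1037. These are of 12683 probes, but of 12654 in the authors' processed values, 25697 with no filter and 9368 detected on all 8 arrays. Leaving out 1 array gave 4 to 8 member calls for day 1 against day 0, 0 to 1 for day 3 against day 2, and 553 to 2156 of all tested probes for day 3 against day 2. With the replicate block the member counts were 8, 11 and 10 for days 1, 2 and 3 against day 0, beside 5322, 6295 and 7016 of all 12683 probes. They were 9, 1 and 9 for day 2 against 1, day 3 against 2 and day 3 against 1, beside 5491, 1961 and 7131. The F test called 11 with the block, beside 8677. With array medians set equal the median of all tested probes shifted by 0.09 at day 1 and -0.09 at day 3 against day 0, by -0.11 for day 2 against 1 and by -0.18 for day 3 against 1. Without background correction, dim probes changed less: Traf5 gave 0.47 at day 2 in place of 1.59, and Birc2 ILMN_2741621 0.65 in place of 1.64. In the authors' processed values Birc3 gave 0.32 (limma adjusted p = 0.0337) at day 2. With only the 2 days compared, Traf2 passed at day 1 (limma adjusted p = 0.0192). A slide as a block was not run, because the headers name none. Probes near background have only bounds. The causes were not tested.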
